A study of Mus musculus with 14 samples.

Results

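The 5 fibrillar collagen genes Col1a1, Col1a2, Col3a1, Col5a1 and Col5a2, and Pcolce, the gene of the procollagen C-endopeptidase enhancer, were followed through 14 single cells from adult mouse bone. The members were chosen as a list of gene symbols, and each of the 6 symbols had exactly 1 row among the 9558 gene rows of the deposited table. All 14 cells were Tomato-positive cells of Prrx1-CreERT;Tomato mice on the C57BL/6 strain. In these mice the Prrx1 promoter drives a Cre recombinase that works only with tamoxifen and switches on a red reporter, which descendants of the cell keep. The mice had been given 3 daily doses of tamoxifen, each 2 mg for 30 g of mouse. Per the labels' protocols, the long bones of the fore and hind limb were emptied of marrow and broken down enzymatically, after which fluorescent cells were enriched by sorting and collected singly by eye. Every cell had the same genotype and treatment and the labels name no animal, so the cells formed 1 group and counted as 1 sample, and no test between samples was possible.

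Fibrillar collagens are made as procollagen chains that wind around each other into a long helix, are secreted, lose their propeptides and assemble into fibrils. Type I collagen combines the chains of Col1a1 and Col1a2 and is the main fibril of bone, tendon and skin. Type III collagen is built from the Col3a1 chain alone and joins type I in soft, extensible tissue. Type V collagen, made chiefly from the chains of Col5a1 and Col5a2, sits inside type I fibrils and starts and limits their growth. The protein of Pcolce is no collagen: it binds the C-propeptide and speeds its removal by the protease encoded by Bmp1.

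The shared helix can be read in the coding sequences, where a glycine codon (GGN) returns every 3 codons without a break. In the longest annotated coding sequence this run held 338 glycine codons in Col1a1, 339 in Col1a2, 344 in Col3a1, 338 in Col5a1 and 339 in Col5a2, whereas the longest such run in Pcolce held 2. The first 18 codons of each run are shown, read from GENCODE M21 transcripts (GRCm38). They hold the feature that makes these 5 genes a family. Capitals mark the glycine codon that returns every 3 codons. Glycine codons at other positions, as in Col3a1, are in lower case.
Col1a1: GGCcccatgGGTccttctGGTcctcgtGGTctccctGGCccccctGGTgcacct
Col1a2: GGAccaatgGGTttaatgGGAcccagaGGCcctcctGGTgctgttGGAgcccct
Col3a1: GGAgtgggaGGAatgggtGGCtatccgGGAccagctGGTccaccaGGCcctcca
Col5a1: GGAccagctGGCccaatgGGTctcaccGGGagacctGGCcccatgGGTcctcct
Col5a2: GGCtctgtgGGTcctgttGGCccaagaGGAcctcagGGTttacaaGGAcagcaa

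The repeat did not make the members' transcripts alike at the scale of a read. Of all stretches of 50 bases in the annotated transcripts, 0 of Col1a1, 0 of Col5a1 and 0 of Col5a2 recurred in another gene. In Col1a2 8 such stretches, or 0.0635%, recurred elsewhere, in Col3a1 0.927%, within the microRNA gene Gm47302 inside it, and in Pcolce 1.58%, within the gene Fbxo24 on the same strand. Col5a1 overlaps 2 non-coding transcripts on the opposite strand and Pcolce overlaps 1 antisense gene. No source used here states whether the counting used strand.

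In GRCm38 Col1a1 lies on the plus strand of chromosome 11 from 94936224 to 94953042 and Col1a2 on the plus strand of chromosome 6 from 4504814 to 4541544. Col5a1 lies on the plus strand of chromosome 2 from 27886425 to 28039514. Pcolce lies on chromosome 5 from 137605103 to 137613784 on the minus strand. Col3a1, on the plus strand of chromosome 1 from 45311538 to 45349706, faces Col5a2, on the minus strand from 45374321 to 45503282. Their 3' ends are 24614 bases apart with 0 annotated genes between them, so these 2 are close neighbours and the other members lie on separate chromosomes.

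All 6 genes were widely expressed in these cells. Levels are given as log2(FPKM + 1), quantile-normalized across the cells, where FPKM is fragments per kilobase of transcript and sequencing depth. A value is thus per length and reflects a gene's rank in that cell. Detection means a value of 1 or more. Col1a1, Col1a2, Col3a1, Col5a2 and Pcolce were detected in all 14 cells, against 15.8% of all rows. Col5a1 was detected in 13 cells (92.9%, exact Clopper-Pearson 95% interval 66.1% to 99.8%, which covers counting error only) and was at 0.96 in cell 14. At a value of 5 or more, all 6 were found in at least 7 cells, against 13.4% of all rows.

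Per length, and by median over the 14 cells, the genes stood in the order Pcolce, Col1a2, Col1a1, Col3a1, Col5a2, Col5a1. With the division by length undone the order was Col1a2, Pcolce, Col3a1, Col1a1, Col5a2, Col5a1, so the order among the first 4 depends on the length term. That length covers all annotated exons of a gene and exceeds the coding part unequally. It was 12426 bases for Col1a2, 6563 for Col1a1 and 3823 for Pcolce, with 1372, 1453 and 493 coding codons. Pcolce was at 5.03 in its lowest cell, 10.06 in the median and 11.85 in its highest, with an SD of 1.73. Col1a2 had its lowest value, 5.60, in cell 2, a median of 8.78 and a highest of 14.58 (SD 2.83). Col1a1 had a lowest value of 3.68, a median of 7.45 and a highest of 12.96 (SD 2.66). The collagen chains were thus spread over a range of up to 9.28 log2 units between cells, and Pcolce over 6.82.

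Col3a1 had a lowest value of 2.96, a median of 7.07 and a highest of 11.14 (SD 2.73). Col5a2 had a lowest value of 1.77, a median of 6.64 and a highest of 9.38 (SD 2.34). Col5a1 had a lowest value of 0.96, a median of 5.15 and a highest of 7.96 (SD 2.23). The 6 medians lay between the 82.0th percentile of the rows of a cell, for Col5a1, and the 98.8th, for Pcolce.

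**Figure D1:**
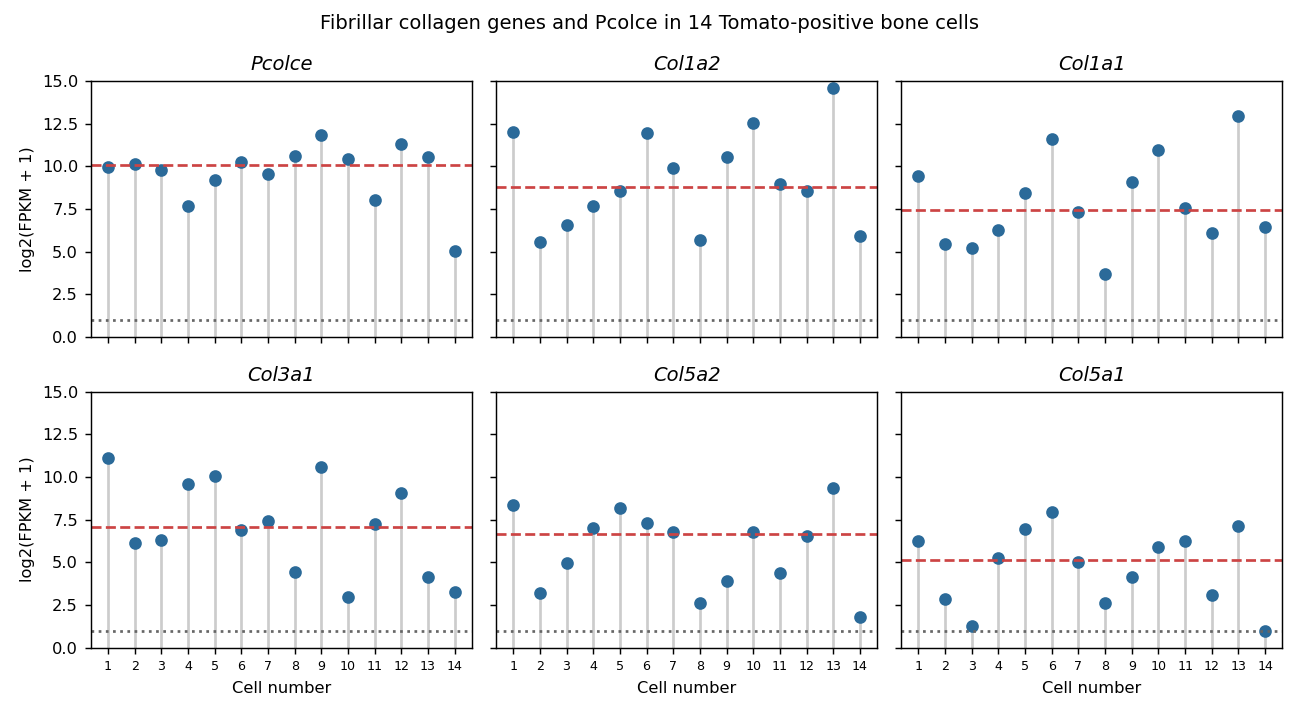
Level of each gene, as log2(FPKM + 1), in cells 1 to 14, with 1 point per cell, the median over the cells as a dashed line and the detection value of 1 as a dotted line. Pcolce lies between 9.19 and 11.85 except in cells 4, 11 and 14, while Col1a2 runs up to 14.58 in cell 13.

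Which gene stood on top varied from cell to cell. Col1a2 was the highest of the 6 in 6 cells (1, 6, 7, 10, 11 and 13), Pcolce in 5 (2, 3, 8, 9 and 12), Col3a1 in 2 (4 and 5) and Col1a1 in 1 (14). Col5a1 was the lowest in 8 cells, and Col3a1 and Col5a2 each in 3. In cell 13 Col1a2 was at 14.58, the highest value of the table. With 1 distribution for all cells, other genes shared that value elsewhere, such as Dcn in cells 2, 7 and 8. The mean of the 6 genes was highest in cell 13, at 9.79, and in cell 1, at 9.54, and lowest in cell 14, at 3.90.

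Most neighbours in the order of medians were closer than their spread. Within a cell, Pcolce minus Col1a2 had a median of -0.18 with an SD of 2.67 and was positive in 6 of 14 cells. With the division by length undone that median was -1.88, and 10 of 14 cells were negative. Col1a1 minus Col3a1 had a median of -0.69 (SD 3.86), Col3a1 minus Col5a2 of 1.83 (SD 2.94) and Col5a2 minus Col5a1 of 1.05 (SD 1.55). Of the 5 neighbouring pairs, the median difference exceeded its SD for Col1a2 and Col1a1 alone. The order per length therefore separates Col1a2 from Col1a1 and leaves the other neighbours within the spread between cells.

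The difference between the chains of type I collagen had the smallest spread of the pairs examined. Col1a1 minus Col1a2 had a median of -1.45 log2 units (SD 0.97, range -2.56 in cell 1 to 0.51 in cell 14), and Col1a1 was the lower of the pair in 13 of 14 cells. In cell 13 Col1a1 was at 12.96 and Col1a2 at 14.58, and in cell 8 they were at 3.68 and 5.71. In cells 2, 5 and 6 the chains were nearly level, with differences of -0.11, -0.13 and -0.39. With the division by length undone, the difference had a median of -2.38 and was negative in all 14 cells. The exonic length used was 6563 bases for Col1a1 and 12426 bases for Col1a2, and the length of Col1a2 includes transcripts with retained introns, which enlarges that figure.

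The difference between the type V chains had a wider spread. Col5a1 minus Col5a2 had a median of -1.05 (SD 1.55), and Col5a1 was the lower in 10 of 14 cells. In cell 3 Col5a1 was at 1.27 against 4.94 for Col5a2, and in cell 12 at 3.09 against 6.54. Cell 11 had the opposite order, with Col5a1 at 6.25 and Col5a2 at 4.36. Col1a2 stood above Col5a2 in all 14 cells: Col1a2 minus Col5a2 had a median of 3.40 (SD 1.88), from 0.40 in cell 5 to 6.69 in cell 9. Col1a1 was below Col5a2 in cell 4, at 6.28 against 7.02, and in cell 12, at 6.10 against 6.54.

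Col3a1 was placed differently against type I collagen in different cells. Col3a1 minus Col1a2 had a median of -1.08 with an SD of 3.80 and was positive in 5 cells, and Col3a1 minus Col1a1 had a median of 0.69 with an SD of 3.86 and was positive in 9. In cells 4 and 5 Col3a1 stood above Col1a2, at 9.57 against 7.71 and 10.03 against 8.58. In cells 13, 10 and 6 it stood far below, with differences of -10.44, -9.61 and -5.09 log2 units. Cells 10 and 13 held Col3a1 at 2.96 and 4.15, among the 4 lowest of the 14, while their Col1a2, at 12.56 and 14.58, were the 2 highest.

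**Figure D2:**
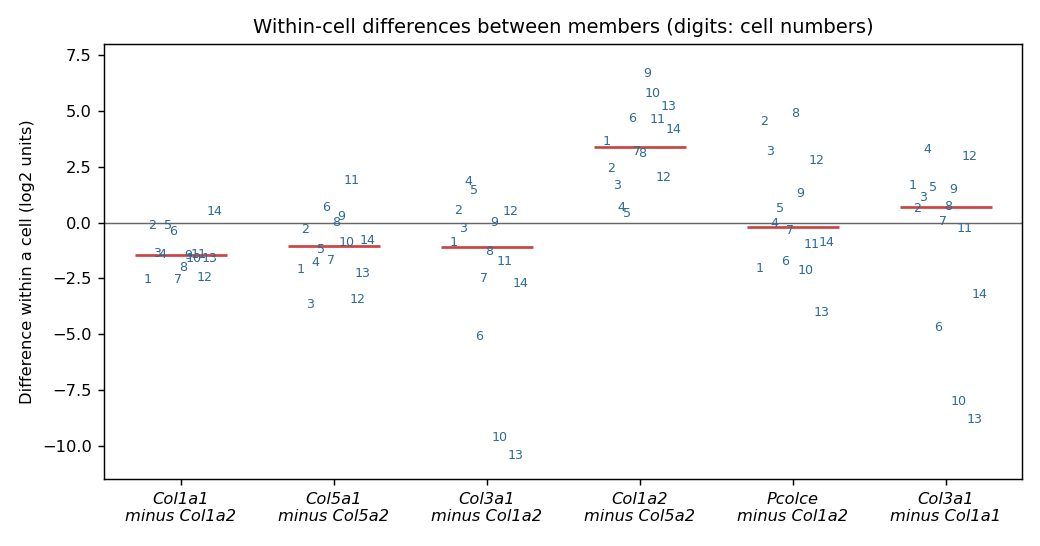
Difference between 2 genes within a cell, in log2 units, for 6 pairs, with each cell drawn as its number and the median over the 14 cells as a red line. Col1a1 minus Col1a2 stays between -2.56 and 0.51, whereas Col3a1 minus Col1a2 reaches -10.44 in cell 13.

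The chains of type I and type V collagen went up and down together from cell to cell. The 6 pairs among Col1a1, Col1a2, Col5a1 and Col5a2 had Spearman correlations over the 14 cells of 0.67 to 0.92. Col1a1 and Col1a2 had the highest, 0.92 (Pearson 0.94), followed by Col5a1 and Col5a2 with 0.85, Col1a1 and Col5a1 with 0.82, Col1a2 and Col5a1 with 0.77, Col1a2 and Col5a2 with 0.72 and Col1a1 and Col5a2 with 0.67. A value of 0.6 was chosen after these were seen: 6 of the 15 member pairs reached it, against 2.95% of the 5921961 pairs of rows detected in at least 10 cells. The cells counted as 1 sample, and the normalization gives each the same distribution. The correlations therefore describe these cells and carry no test.

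**Figure D3:**
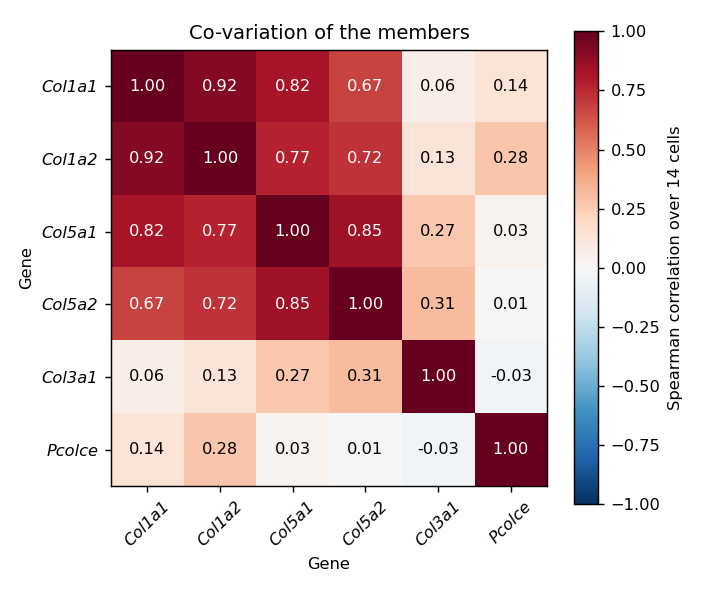
Spearman correlation between each pair of the 6 genes over the 14 cells, printed in each square and coloured from blue (-1) to red (1). The 4 chains of type I and V collagen form a block of 0.67 to 0.92, while Col3a1 and Pcolce lie outside it with values of -0.03 to 0.31.

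Col3a1 and Pcolce did not follow that block over the 14 cells. Col3a1 had correlations of 0.06 with Col1a1, 0.13 with Col1a2, 0.27 with Col5a1 and 0.31 with Col5a2, its neighbour on chromosome 1. Pcolce had 0.14 with Col1a1, 0.28 with Col1a2, 0.03 with Col5a1, 0.01 with Col5a2 and -0.03 with Col3a1. The low values of Col3a1 rested on cells 10 and 13. Without these 2 cells, a choice made after their values were seen, Col3a1 had correlations of 0.59 with Col1a1, 0.71 with Col1a2, 0.64 with Col5a1 and 0.71 with Col5a2 over the other 12 cells. Those of Pcolce with the 4 chains of type I and V collagen stayed between -0.07 and 0.17 in the same 12 cells. Without cells 11 and 14 instead, the correlations of Pcolce with the other 5 genes ran from -0.35, with Col5a2, to 0.20. By Pearson's correlation over the 14 cells they were 0.22 to 0.40.

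**Figure D4:**
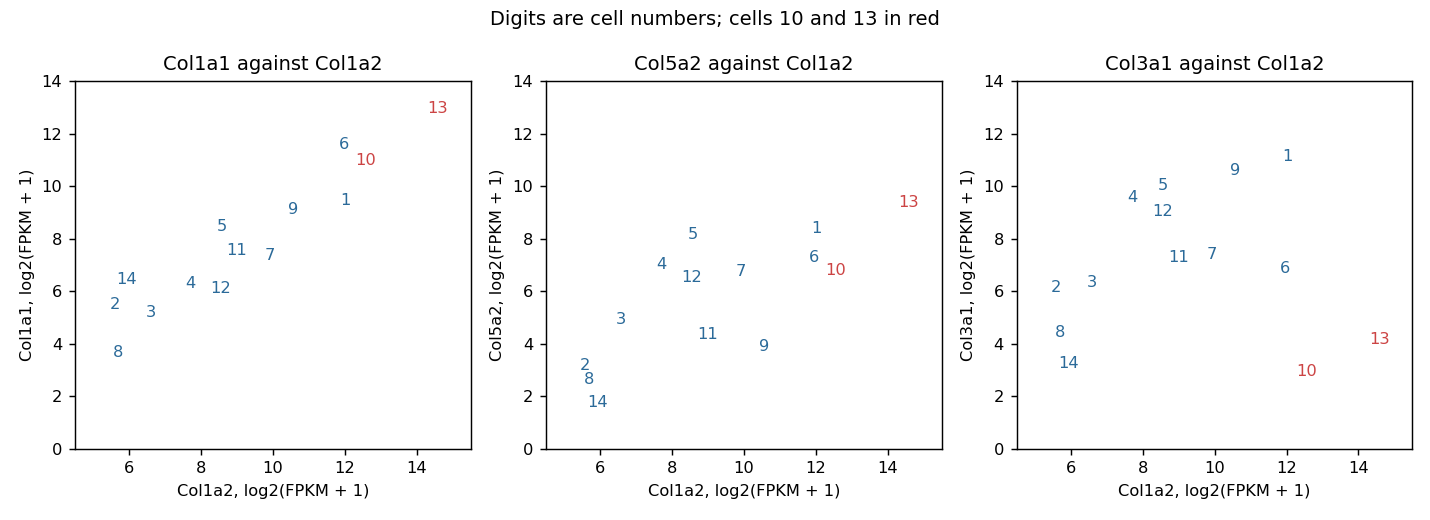
Levels of Col1a1, Col5a2 and Col3a1 on the vertical axes against Col1a2 on the horizontal axis, all as log2(FPKM + 1), with each cell drawn as its number and cells 10 and 13 in red. Col1a1 climbs with Col1a2 in most cells, though not in each, while Col3a1 climbs in most and lies at 2.96 and 4.15 in cells 10 and 13.

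Some genes of mineralizing bone, though not all, were high in cells 10, 13 and 6. The bone sialoprotein gene Ibsp had a median of 3.87 over all cells and values of 12.48, 11.17 and 7.25 in cells 10, 13 and 6. Ifitm5, whose membrane protein marks osteoblasts, had 9.0 in cell 10, 10.60 in cell 13, 11.72 in cell 6 and a median of 2.33. Averaged over 6 osteoblast markers, Col1a1 left out, the level in cells 10, 13 and 6 was 7.87, 6.95 and 5.72, while no other cell exceeded 3.20. Single markers did not all follow: Alpl, a phosphatase of mineralization, was at 7.81 and 4.67 in cells 10 and 13 and at 0.61 in cell 6. In cell 7 Alpl was at 5.00. The osteoblast regulator Sp7 was at 3.62 and 4.01 in cells 10 and 13 and at 0.52 in cell 6, and Runx2 was at 0.48 in cell 10. Spp1, the osteopontin gene, had 13.82 in cell 10, and its 7.98 in cell 11 was above the 7.76 of cell 6 and the 7.15 of cell 13. Over the 14 cells Col3a1 minus Col1a2 had a Spearman correlation of -0.62 with Ibsp, -0.66 with Ifitm5, -0.39 with Spp1 and -0.62 with the marker mean. The osteoblast marker mean had a correlation of 0.66 with the mean of the type I and V chains and -0.23 with Col3a1. For the mean of 4 chondrocyte markers, from 0.26 in cell 4 to 5.61 in cell 13, these were 0.72 and 0.09. Singly, Col2a1, Col11a2, Sox9 and Comp had 0.50, 0.49, 0.40 and 0.13 with the type I and V mean, and the 6 osteoblast markers 0.39 to 0.66. The part of either marker list in the members' levels was not tested.

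Blood cell genes were high in cells 11 and 14, and several of them also in cells 8 and 6. In cell 6 these were neutrophil genes and, of the pan-haematopoietic markers, Tyrobp at 11.67 and Cd52 at 10.66. Ptprc was at 0.50 in that cell. Cell 14, with the lowest Pcolce, Col5a1 and Col5a2, had the highest mean of the 6 pan-haematopoietic markers, 9.51. Cell 11 followed at 9.28 and cell 8 at 6.66, and the lowest mean of any cell was 1.16. The sum of these markers ran from 6.93 to 57.07 over the cells, and none was at 0 in any cell. Of the 6, 4 were detected in at least 7 cells, against 51.7% of all rows. Ptprc, the leukocyte antigen CD45, had a median of 0.46 and values of 6.51 and 8.31 in cells 14 and 11. The mean of 6 neutrophil markers was highest in cell 6, at 10.82, against 8.35 and 8.50 in cells 11 and 14, and cell 6 is also one of the cells with high osteoblast markers. In that cell Mpo, a granule enzyme gene, had 11.25, and the elastase gene Elane had 8.13. Both genes were below the detection value in cells 11 and 14. Camp, Ngp and Retnlg, made by neutrophils, were detected in all 14 cells, with medians of 9.64, 8.70 and 9.92. These genes were lower in cell 6 than in cells 11 and 14. Camp had 10.64 against 12.96 and 11.97, Ngp 12.14 against 12.77 and 12.48, and Retnlg 12.28 against 14.58 in both. Ltf, also on the neutrophil list, had 10.50 against 9.79 and 11.02. The mean of 4 macrophage markers was 10.71 in cell 14, 5.93 in cell 8 and 5.26 in cell 11. In cell 8, where Col1a1 was lowest at 3.68, Lyz2 was at 11.40, Tyrobp at 10.97 and Ptprc at 3.27. Over the 14 cells the pan-haematopoietic, macrophage and neutrophil means had Spearman correlations of -0.52, -0.53 and -0.32 with the mean of the 6 genes. The part of blood cell RNA in the members' levels was not tested. Without cells 11 and 14 the correlations among the type I and V chains were 0.73 to 0.94, and without cells 6, 8, 11 and 14 they were 0.62 to 0.96.

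The cells were also cut into sets of 9 and 5 by which rows were at 0, with cells 3, 4, 11, 12 and 13 in the smaller. Such a cut is returned for any data, and how far the sets are separated was not measured. Within the 9 cells the 6 correlations among type I and V chains were 0.65 to 0.93, and 5 cells were too few for a correlation. The median of Col1a1 minus Col1a2 was -1.46 over the 9 cells and -1.44 over the 5. Other differences were further apart between the sets: Col5a1 minus Col5a2 had -0.80 over the 9 cells and -2.26 over the 5, Col1a2 minus Col5a2 had 3.63 and 2.02, and Col3a1 minus Col1a2 had -1.29 and -0.28. Prrx1, whose promoter drives the Cre recombinase, had a median of 3.53 and a Spearman correlation of 0.43 with the mean of the 6 genes. With the mean of the type I and V chains Prrx1 had 0.35, with Col3a1 0.29 and with Pcolce 0.16.

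Rows whose pattern over the cells was most like the members were ranked by Spearman correlation among 3276 rows detected in at least 10 cells. The mean of the 6 genes was itself closer to the type I and V chains, with 0.85 to 0.88, than to the other members. Col3a1 had 0.39 with it (rank 286) and Pcolce 0.31 (rank 431). Most like the mean of the 6 genes were Sec11a, a catalytic subunit of the signal peptidase (0.89), the stress-response gene Nupr1 (0.86), Sec24d, a coat protein gene of vesicles leaving the endoplasmic reticulum (0.82), and Ppic, a prolyl isomerase gene (0.80). Ccdc107 (0.78), the transcription factor gene Irf3 (0.77) and the bone matrix protein gene Sparc (0.76) followed. Of the nearest 8 genes, 3 stayed among the nearest 8 when cells 11 and 14 were left out, namely Sec11a, Nupr1 and Sec24d. With Pearson's correlation 3 stayed as well, namely Nupr1, Ppic and Sparc.

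Each member had neighbours of its own. Sec11a was the nearest other gene to Col1a1 (0.91), Col1a2 (0.87) and Col5a1 (0.94). Its levels in cells 6, 13 and 3 were 10.36, 8.26 and 3.07. Dennd5a was next for Col1a1 (0.88) and Col1a2 (0.79), and the third were the tropomyosin gene Tpm1 for Col1a1 (0.81) and Rasl11a for Col1a2 (0.78). Col5a1 was followed by Kdelr3, a receptor gene that returns proteins to the endoplasmic reticulum (0.84), and Sec24d (0.78). Col5a2 was most like Sec24d (0.88), Ddt (0.87) and Cthrc1, which encodes a secreted protein with a collagen repeat (0.85).

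Col3a1 and Pcolce had other nearest genes. Col3a1 was most like Col6a3, a chain of collagen VI (0.88), Magt1 (0.83) and Rras (0.83). Col6a3 had 7.91 and 7.32 in cells 5 and 1, and 1.34 and 0.85 in cells 10 and 13, the cells where Col3a1 was low and type I high. Pcolce was most like the immediate early gene Fosb (0.86), Cyr61, a secreted matrix-associated protein gene (0.81), and Dram2 (0.79). Fosb was at 1.32 and 1.07 in cells 4 and 5, where Pcolce was at 7.69 and 9.19. These ranks were taken over 14 cells among 3276 rows, and they are descriptions.

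Within the co-varying block, promoter windows were available for Col5a1 and Col1a2 alone. That of Col5a1, which held no annotated exon of the gene itself, is shown from RefSeq (GRCm38.p6, chr2:27886175-27886424, plus strand), the 250 bases before its start. The windows of Col1a2 and Pcolce overlap annotated exons and are not printed, and none was available for Col1a1 and Col5a2. Capitals would mark CCAAT or TATAAA on either strand. Neither was present in this window, whereas 33.8% of 32851 promoter windows of the same length held CCAAT and 12.4% held TATAAA, and the window of Col1a2 held CCAAT and that of Col3a1 TATAAA.
Col5a1: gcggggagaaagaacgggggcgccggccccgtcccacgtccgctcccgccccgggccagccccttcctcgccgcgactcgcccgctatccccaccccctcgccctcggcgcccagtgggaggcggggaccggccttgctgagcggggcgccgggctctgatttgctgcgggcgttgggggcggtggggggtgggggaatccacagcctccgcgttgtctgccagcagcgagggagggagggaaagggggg

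Genes that make, export and process procollagen were examined as lists. Over 10 lists, 90 of 112 genes had a row, and 72 of the 90 (80.0%) reached detection in 7 cells or more, against 51.7% of all rows. In all 14 cells 24 did so (26.7%), against 15.8% of all rows. The median of the median levels was 7.26 for the 6 members, against 2.67 for the list genes and 0.96 over all rows with a distinct symbol.

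Hydroxylation, glycosylation and folding genes were widespread: 15 of 17 with a row reached detection in 7 cells or more, against 51.7% of all rows. P4hb, the shared subunit of the prolyl 4-hydroxylase, had a median of 10.12, and Serpinh1, the collagen chaperone HSP47, of 6.82, both in all 14 cells. Crtap, a partner of prolyl 3-hydroxylation, had 5.93 and the cyclophilin gene Ppib 5.17. The catalytic prolyl hydroxylase gene P4ha1 had 4.27 and the lysyl hydroxylase gene Plod2 2.49. Fkbp10, a folding enzyme gene, had a Spearman correlation of 0.77 with the mean of the 4 type I and V chains, Crtap 0.62 and Fkbp14 0.61. Of the 11 genes of the list detected in at least 10 cells, 3 reached 0.5, against 4.13% of 3438 rows.

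Of 9 procollagen export genes with a row, 8 reached detection in 7 cells or more, against 51.7% of all rows. Sec24d had a median of 3.80 and its highest levels, 9.14, 8.96 and 8.18, in cells 13, 6 and 1. Its correlation with the mean of the type I and V chains was 0.74, and that of Sec13, a further coat subunit with a median of 5.84, was 0.60. Mia3, the cargo receptor that loads procollagen, had a median of 5.04 and a correlation of 0.07.

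Propeptide removal genes were lower than Pcolce. Bmp1, the protease that Pcolce assists, had a median of 2.52, a highest value of 7.55 in cell 6, and detection in 10 cells. Its correlation with Pcolce was 0.24. Pcolce2, a related enhancer gene, had a median of 4.22 and reached detection in every one of the 14 cells. The N-propeptidase gene Adamts2, found in 9 cells, had a median of 1.54 and a correlation of 0.61 with the mean of the type I and V chains. Of the cross-linking enzymes, Lox had a median of 4.71, Loxl2 of 3.35 and Loxl1 of 2.07. In 7 cells or more 3 of 5 (60%) reached detection, near the 51.7% of all rows.

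**Figure D5:**
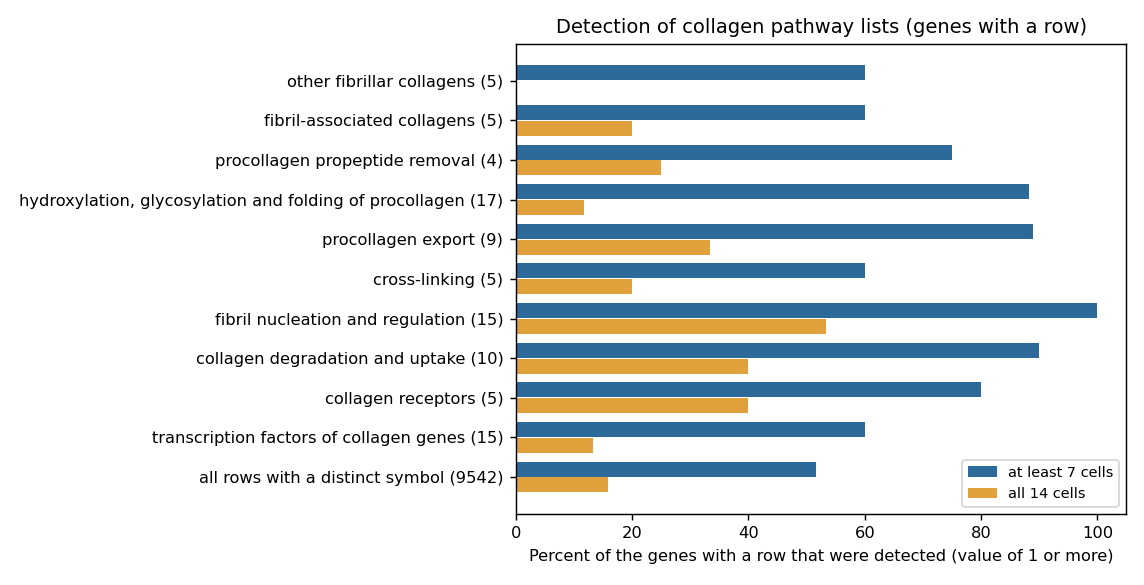
Percent of the genes with a row that were detected in at least 7 cells (blue) and in all 14 cells (orange) for 10 lists of collagen pathway genes and for all rows, with the number of genes in brackets. Fibril nucleation and regulation genes reach 100% in at least 7 cells, against 51.7% of all rows.

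The other fibrillar collagen genes were less widely detected than the 5 members. Of 6 named, 5 had a row, 3 reached detection in 7 cells or more and 0 did so in all 14. The shares of all rows were 51.7% and 15.8%, so 3 of 5 (60%) is near the first. Col11a1, whose chain can replace a type V chain in mixed fibrils, had a median of 2.34 and reached detection in 12 cells. Its levels in cells 13, 6 and 10 were 9.43, 9.09 and 7.97, the highest of the 14. Its correlation was 0.64 with the mean of the type I and V chains and -0.25 with Col3a1. Col11a2 had 9.96 in cell 6 and detection in 10 cells. Col2a1, the cartilage collagen gene, had 9.53 in cell 13 and was above the detection limit in 7 cells.

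The members were set against 2 related matrix families within each cell. The mean of the 6 members exceeded that of the collagen VI chains in 14 of 14 cells, by a median of 2.65 log2 units (SD 2.15). It exceeded the mean of 8 small leucine-rich proteoglycan genes in 9 of 14 cells, by a median of 1.21 (SD 1.80), within the spread. With the division by length undone the counts were 14 and 13 cells. The collagen VI mean had a Spearman correlation of 0.80 with Col3a1 and 0.23 with the type I and V chains, and the proteoglycan mean had 0.40 and 0.46.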

How the data were processed

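Per the labels' protocols, each cell's RNA was amplified with the SMART-Seq v4 3' chemistry and turned into a library with Nextera XT. The submitters' processing notes name TopHat2, Cufflinks and GRCm38. The table the authors deposited is named for FPKM, but the deposited numbers are log2 values that follow 1 distribution in all cells. They were read as quantile-normalized log2(FPKM + 1), a reading that no label or header states. The depth of the libraries is unknown, and differences in RNA content cannot be seen. A 3' kit gives reads that do not grow with length, so FPKM understates long genes. Each of the 14 columns carries the number in 1 sample title. The plan assumed linear FPKM, so a detection limit of FPKM 1 became a value of 1. The design allowed no test; medians, SDs over cells and Spearman correlations describe these cells. The members and lists were chosen with earlier results of these data known. Named genes were the 6 members, list genes, the 8 rows most like the member mean and the 3 most like each member, leaving out ribosomal, mitochondrial, predicted and small RNA symbols. 1 of the 8 is not reported here. Alternatives covered detection limits, length, pseudocount, ranks and cells left out. Gene positions came from GENCODE M21, matched for 9531 rows. The likeness ranking was tested on simulated data. Python 3.11.15, pandas 2.3.3 and scipy 1.17.1 were used.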

Additional observations from a re-analysis of the deposited data

How the results depend on the processing

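Of 565 alternative values over 40 results, 406 left out 1 cell each, which can hardly move a median of levels but can move a correlation. Of the rest, 139 stayed the same by the spread between cells or within 1.5 times a count, and 20 moved. Raising the detection limit to FPKM 10 left 3 members in all 14 cells and 39 pathway genes in at least 7, and raising it to a log2 value of 5 left 2 and 26, against 5 and 72. With the division by length undone the medians were 10.16 for Col1a1, 12.42 for Col1a2, 10.36 for Col3a1, 8.19 for Col5a1, 9.89 for Col5a2 and 11.99 for Pcolce. The median over all rows was then higher by 1.56, and 2 of the 6 members kept their place in the order, with Col1a2 first. Without cells 6, 8, 11 and 14, 4 kept their place, with Col1a1 and Col3a1 exchanged. Pcolce minus Col1a2, with a median of -0.18, had a median of 0.30 without cells 11 and 14. The median correlation over the 15 member pairs was 0.28 and became 0.64 without cells 10 and 13, an alternative chosen after the data had been seen. Of the 8 genes most like the member mean, 3 were shared with Pearson's correlation and 3 without cells 11 and 14. The cause of these shifts was not tested.

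With each cell left out in turn, medians of the members were 7.36 to 7.55 for Col1a1, 8.58 to 8.99 for Col1a2, 6.88 to 7.26 for Col3a1, 5.04 to 5.25 for Col5a1, 6.54 to 6.75 for Col5a2 and 9.97 to 10.14 for Pcolce, ranges that follow from taking a median. Correlations moved further with 1 cell left out. That of Col1a2 with Col3a1 ran from 0.01 to 0.40, and that of Col3a1 with Col5a2 from 0.19 to 0.54. Col1a2 with Pcolce ran from 0.20 to 0.50, while the pairs of type I and V chains stayed between 0.59 and 0.94. No paired analysis was possible because the samples form 1 group.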

Other observations

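Genes that break down, bind or switch on fibrillar collagen were examined as further lists. Among 10 degradation and uptake genes, 9 reached detection in 7 cells or more, against 51.7% of all rows. Mmp2, a gelatinase gene, had a median of 6.63, the collagen-cleaving protease gene Ctsk 6.48 and the inhibitor genes Timp1 and Timp2 8.06 and 6.56, each in all 14 cells. The membrane collagenase gene Mmp14 was detected in 12 cells and had a Spearman correlation of 0.61 with the mean of the type I and V chains, and the collagen uptake receptor gene Mrc2 had 0.63. Mmp9 and Mmp8, made by blood cells as well, had -0.25 and -0.21.

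Among 5 receptor genes with a row, 4 reached detection in 7 cells or more, against 51.7% of all rows. The integrin subunit gene Itgb1 had a median of 5.66 and the collagen receptor kinase gene Ddr2 of 3.19, in 14 and 12 cells, and their correlations with the type I and V chains were 0.05 and -0.04. Among 15 transcription factor genes with a row, 9 did, a share near that of all rows. Runx2 and Sp7, regulators of osteoblast genes, were detected in 4 and 3 cells. Of the genes of the CCAAT-binding complex, Nfyc was detected in 11 cells, Nfyb in 3 and Nfya in 2.

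All 15 genes with a row that nucleate or regulate fibrils reached detection in 7 cells or more, and 8 of them in all 14. The shares of all rows were 51.7% and 15.8%. The proteoglycan gene Bgn had a median of 8.61 and a correlation of 0.67 with the mean of the type I and V chains, and the matrix protein gene Sparc had 11.50 and 0.68. The fibronectin gene Fn1, with a median of 8.07, and the decorin gene Dcn, with 12.62, had -0.07 and -0.31. Of 10 fibril-associated collagen genes 5 had a row and 3 reached detection in 7 cells or more, a share near that of all rows. These were Col12a1 (median 2.10), Col14a1 (2.05) and Col16a1 (2.62).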
